A study of Mus musculus with 222 samples.

Results

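Mammary tumors of backcross (F1BX) mice, 140 arrays, were compared with those of F1 mice, 19 arrays, together 159 of the 222 arrays of the series. The study asked how genetic background shapes ERBB2-driven mammary cancer. All of these tumors arose in female mice that carry the ErbB2 proto-oncogene under the 3′ promoter of the mouse mammary tumor virus (MMTV), which is active mainly but not solely in mammary epithelium. F1 mice came from FVB MMTV-ErbB2 females and C57BL/6 males. F1BX mice came from transgene-positive F1 males and nontransgenic FVB females, so that both groups carried the transgene and differed in the share of C57BL/6 genome. FVB MMTV-ErbB2 tumors (26 arrays) are shown beside them as a description. The ages at which the tumors were taken are not in the labels used here.

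By the crosses, an F1 mouse holds an FVB and a C57BL/6 allele at every autosomal locus, whereas an F1BX mouse received an FVB allele from its mother and an allele of either strain from its father. A gene whose level follows the allele at its own locus can therefore divide F1BX tumors into a set like FVB and a set like F1, in which tumors of the same mouse share a side. An F1 female has an X chromosome of each strain. The study's genotypes include heterozygous X markers in F1BX mice, so the strain of their X chromosomes is not taken as known here.

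The tumors were chosen by their labels and names and by measured values. Of 160 arrays labelled F1BX, 20 were left out because the interquartile range (IQR) of their log2 values was below 2.8, and these include both arrays with names ending in R. The widest array left out was 007T1, with an IQR of 2.62, and the narrowest kept was 050T2, with 3.07. Of 28 arrays labelled F1, the 19 kept have names of the form F, number, T. Another 7 were left out by name, namely 6 with F1_ names and 051T1. F21T3 and F21T4 were left out because their D17H6S56E-5 levels (8.77 and 8.96) lay among those of FVB tumors. F21T2, which by name is of the same mouse, had 12.68 and was kept. F21T3 and F21T4 also lay within the FVB range, and below every F1 tumor kept, for H2-Eb1 (7.51 and 7.52) and Zfp239 (7.18 and 7.23). For AI506816 they had 5.11 and 4.04, again below every F1 tumor kept. With both kept as F1, 1214 probe sets were called in place of 2725. The 140 F1BX tumors came from 93 mice and the 19 F1 tumors from 15 mice. The IQR of the arrays was 3.07 to 3.32 (median 3.21) in F1BX and 3.17 to 3.35 (median 3.28) in F1. Among the FVB tumors shown, 063T1 alone is named by a number, as F1BX tumors are, and it was kept. It lay within the F1 range for Zfp239 (9.29), AI506816 (8.18), Arntl2 (7.925) and Sema3b (9.66). For D17H6S56E-5 (9.21), H2-Eb1 (7.22) and C1qtnf1 (6.60) it lay among the other FVB tumors.

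F1BX and F1 tumors differed in many genes by small amounts and in few by large ones. At a Benjamini-Hochberg adjusted p under 0.05 from limma, 2725 of 35556 probe sets were called (7.66%), 1558 higher (4.38%) and 1167 lower (3.28%) in F1BX. The median size of a called difference was 0.19 on the log2 scale, and 1917 of the 2725 were under 0.25. Differences of at least 2-fold were called for 17 probe sets, 3 higher and 14 lower, and of the 14 lower ones 7 carried no gene symbol. The counts moved with the IQR of the arrays: with the IQR as a covariate, 457 probe sets were called (208 higher, 249 lower), and 406 of these belong to the 2725. Among probe sets with a mean log2 level under 6, 463 were called higher and 70 lower, and among the others 1095 and 1097. Because the tumors are bulk tissue, fewer cells of a type and less RNA per cell cannot be told apart.

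In 5 of the 12 named decreases (D17H6S56E-5, H2-Eb1, Zfp239, Arntl2 and AI506816), F1BX tumors lay at a level like FVB tumors or at a level like F1 tumors, a description from the plotted values. The values of D17H6S56E-5 and of its neighbor H2-Eb1 are given without a test, since the former chose the F1 tumors. D17H6S56E-5 on chromosome 17 had a log2 level of 11.06 to 12.68 (median 12.24) in F1 and of 7.74 to 13.25 (median 11.39) in F1BX tumors. FVB tumors ran from 8.42 to 9.92. The mean difference between F1BX and F1 was -1.33 on the log2 scale, and -1.05 with F21T3 and F21T4 kept. Counted at the midpoint between the FVB and F1 medians, 75 F1BX tumors lay on the side of F1 and 65 on the side of FVB. H2-Eb1, measured here as RNA only, encodes the beta chain of the MHC class II molecule I-E, and I-E protein was not measured. Its log2 level was 8.13 to 9.92 (median 9.23) in F1, 6.79 to 10.47 (median 8.25) in F1BX and 6.92 to 7.57 in FVB tumors. The F1 and FVB ranges of H2-Eb1 did not overlap, and F1BX tumors filled both, with 71 on the side of F1 and 69 on the side of FVB.

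Zfp239, a zinc finger gene on chromosome 6, had a log2 level of 9.05 to 9.95 (median 9.43) in F1 and of 6.07 to 9.88 (median 8.67) in F1BX tumors. The difference was -1.09 on the log2 scale (limma, standard error 0.239, adjusted p = 0.0020). With F21T3 and F21T4 kept it was -0.90 (limma, adjusted p = 0.0159). Below the lowest F1 tumor lay 83 of 140 F1BX tumors, and 73 were on the side of F1 and 67 on that of FVB. Arntl2, a partner of the CLOCK protein in the circadian clock, also lies on chromosome 6. Its log2 level was 7.24 to 8.84 (median 8.04) in F1 and 6.05 to 10.37 (median 7.19) in F1BX tumors, a difference of -0.82 (limma, standard error 0.200, adjusted p = 0.00608). The FVB median of Arntl2 was 6.45, and 71 F1BX tumors lay on that side. For AI506816, on chromosome 5 by its symbol, the F1 and FVB medians lay further apart than for the genes above. Its probe set (10351504) is numbered between those of Efhd1 (10348194) and Tns1 (10355528) on chromosome 1, and where its probes bind was not checked. Its log2 level was 5.87 to 9.10 (median 8.35) in F1 and 4.16 to 9.30 (median 7.95) in F1BX tumors, with 80 tumors on the side of F1 and 60 on that of FVB, where the median was 4.55. The difference in means was -1.37 (limma, standard error 0.409, adjusted p = 0.0246), and it did not pass with F21T3 and F21T4 kept (-1.05, adjusted p = 0.113). Its call was also lost with 1 array per mouse, but not in a Welch test on the mean per mouse.

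C1qtnf1 on chromosome 11, which encodes a secreted protein of the C1q and TNF related family, had the smallest adjusted p of the named genes. Its log2 level was 8.09 to 10.26 (median 9.16) in F1 and 6.14 to 10.35 (median 7.29) in F1BX tumors. The difference was -1.49 (limma, standard error 0.257, adjusted p = 0.000151). Below the lowest F1 tumor lay 93 of 140 F1BX tumors. By the midpoint of the FVB and F1 medians, it had 47 tumors on the side of F1 and 93 on that of FVB. Sema3b on chromosome 9, a secreted semaphorin, had a log2 level of 8.05 to 10.87 (median 9.81) in F1 and of 6.63 to 11.02 (median 8.08) in F1BX tumors. Its difference of -1.50 (limma, standard error 0.279, adjusted p = 0.000363) was the largest decrease among the named genes. F1BX tumors covered the F1 range of Sema3b and extended below it in 69 of 140.

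**Figure D1:**
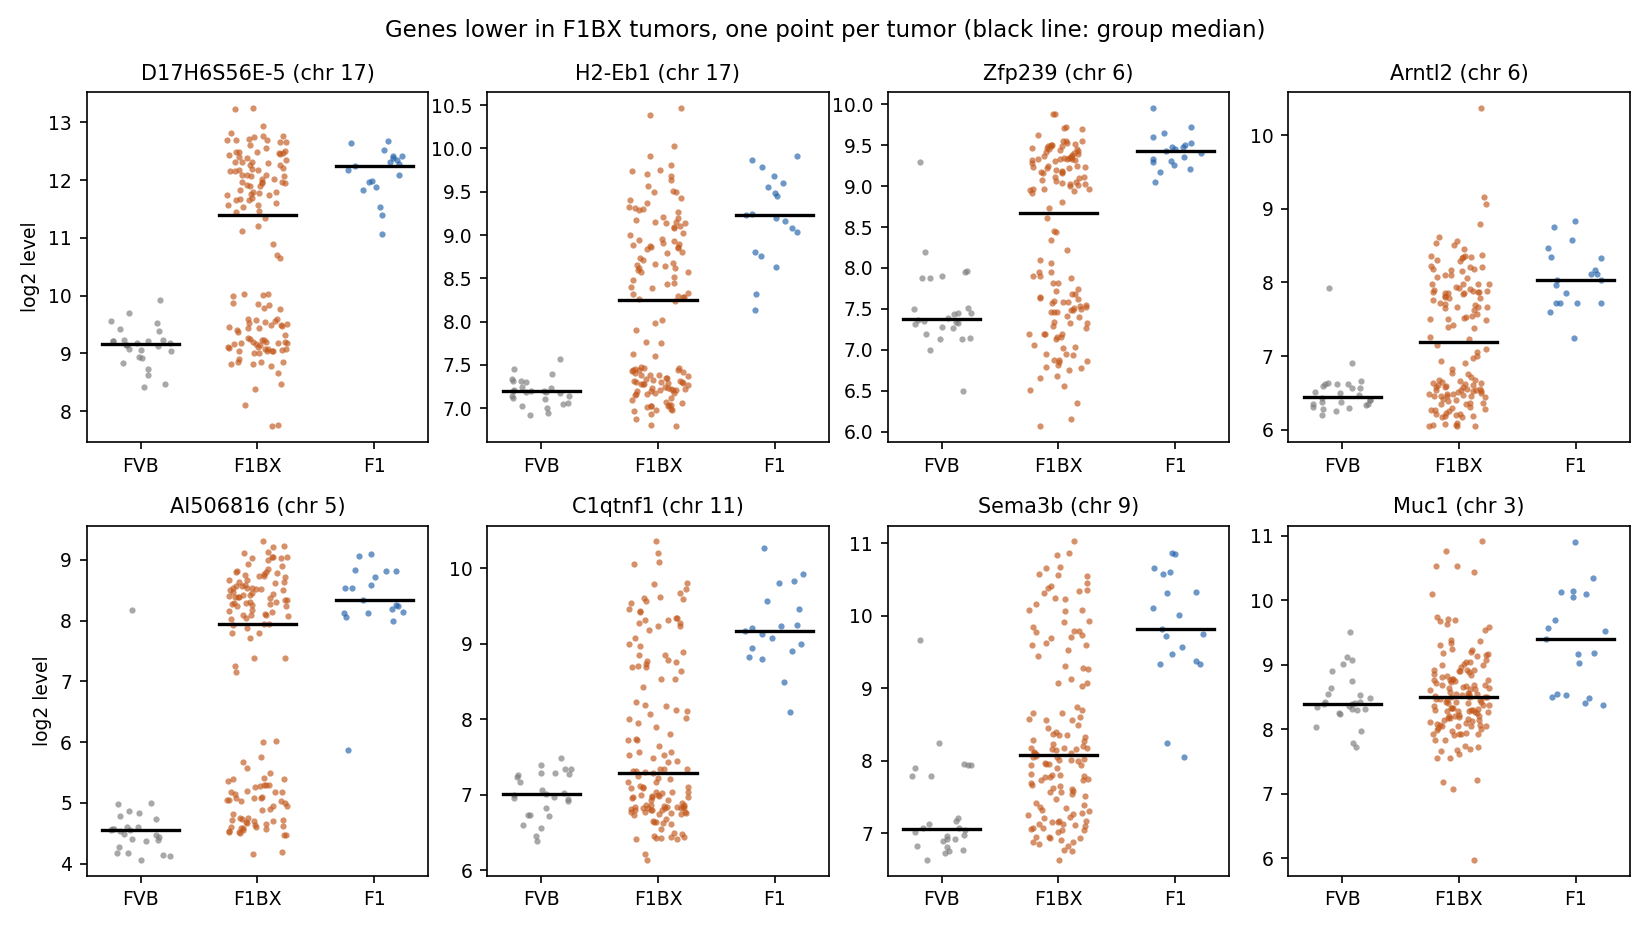
Log2 level (y axis) of 8 genes lower in F1BX than in F1 tumors, by background (x axis), with FVB tumors beside them. Each point is 1 tumor and black lines are medians. For D17H6S56E-5, H2-Eb1, Zfp239, Arntl2 and AI506816 the F1BX tumors fall into a set at the FVB level and a set at the F1 level. For Muc1 the FVB and F1 tumors overlap. On the F1 side of its midpoint lie 35 of 140 F1BX, 13 of 19 F1 and 5 of 26 FVB tumors.

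Tumors of the same F1BX mouse lay on the same side more often for some of these genes than for others. From 30 F1BX mice, 2 to 4 tumors each (77 in all) were measured. For D17H6S56E-5, all tumors of a mouse were on the same side of the midpoint in 29 of 30 mice, 18 wholly on the side of F1 and 11 on that of FVB. The count was 28 of 30 for Zfp239, 26 for H2-Eb1, 25 for AI506816, 23 for Arntl2, 22 for C1qtnf1 and 19 for Sema3b. The share of the variance of F1BX tumors that lay between mice (the intraclass correlation) was 0.88 for D17H6S56E-5, 0.78 for Zfp239, 0.77 for H2-Eb1, 0.74 for AI506816, 0.69 for Arntl2, 0.65 for C1qtnf1 and 0.44 for Sema3b. Over all probe sets its median was 0.0951. For the genes most raised in F1BX it was 0.25 for Rdh12, 0.17 for Lao1 and 0.18 for Efhd1, and all tumors of a mouse were on the same side in 19, 13 and 14 of 30 mice. The mouse split for D17H6S56E-5 was 145. Its tumor 145T5 lay on the side of F1 for D17H6S56E-5 (12.50), H2-Eb1 (9.09), Zfp239 (9.41), AI506816 (8.53) and Arntl2 (7.78). Tumors 145T1 and 145T6 lay on that of FVB for each of these genes. 145T5 was kept, and whether the mouse in its name is right was not tested. All values of this paragraph are descriptions of the same tumors and carry no test.

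**Figure D2:**
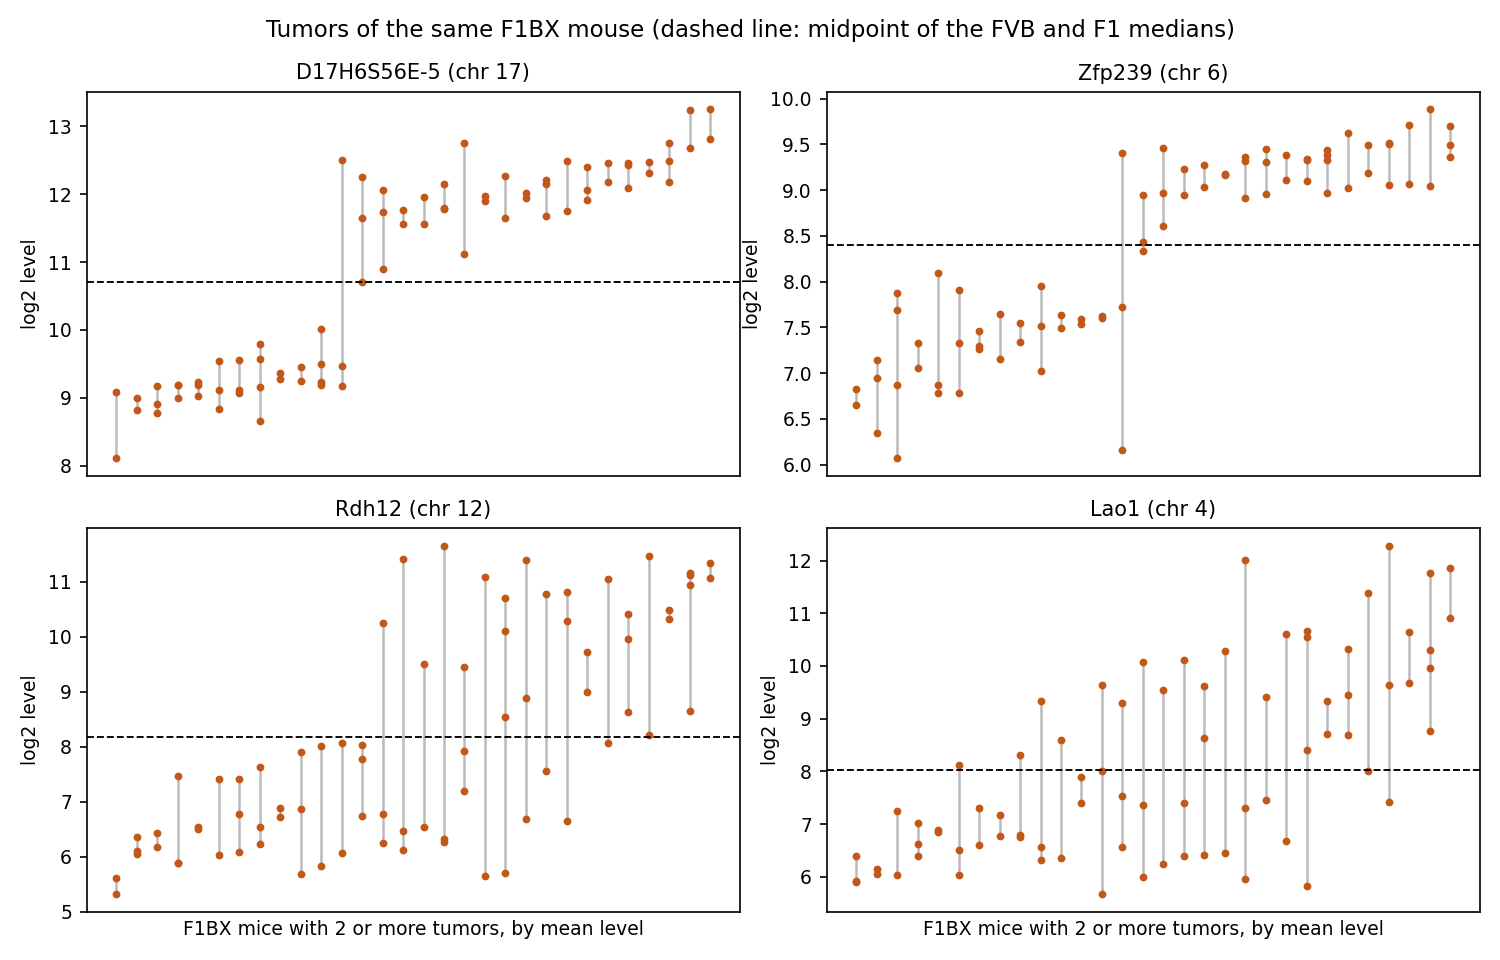
Log2 level (y axis) of 4 genes in the 77 tumors of the 30 F1BX mice with at least 2 tumors, 1 column of points per mouse, ordered by the mean of the mouse (x axis). Grey lines join tumors of a mouse and the dashed line is the midpoint of the FVB and F1 medians. Mice lie on 1 side of the line in 29 of 30 cases for D17H6S56E-5 and in 28 for Zfp239, and in 19 for Rdh12 and 13 for Lao1.

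Genes on the same chromosome also divided the tumors alike. D17H6S56E-5 and H2-Eb1, with 53 other genes between them in the reference order of chromosome 17, put 95.7% of the 140 F1BX tumors on the same side, 70 on that of F1 and 64 on that of FVB, and 6 on different sides. Zfp239 and Arntl2, with 705 genes between them on chromosome 6, put 74.3% on the same side, 53 on that of F1 and 51 on that of FVB. Among 7 genes (these 4 with AI506816, C1qtnf1 and Sema3b), the 19 pairs on different chromosomes put 46.4% to 60% of tumors on the same side. All pairs share the tumors and the normalization, and these shares are a description.

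The other named decreases had F1BX tumors both within and below the F1 range. Muc1, a mucin of the apical surface of luminal epithelium, had a log2 level of 8.38 to 10.89 (median 9.40) in F1 and of 5.98 to 10.91 (median 8.49) in F1BX tumors, a difference of -0.80 (limma, standard error 0.176, adjusted p = 0.00208). Myo7a, an unconventional myosin, had medians of 10.29 in F1 and 9.96 in F1BX tumors and a difference of -0.85 (adjusted p = 0.0321 from limma). Its F1 tumors lay between 9.41 and 11.37, and 54 F1BX tumors were below them. The intraclass correlation of Myo7a was -0.07. Dsg1c, a desmosomal cadherin, had a difference of -0.995, Atp10b, a phospholipid transporter, one of -0.92, and Matn2, a matrix protein, one of -0.90 (adjusted p = 0.00665, 0.0210 and 0.0120 from limma). For these 3 genes, 25 to 36 of the F1BX tumors lay below the F1 range and 0 to 4 lay above it. The calls of Myo7a, Dsg1c and Atp10b were lost with F21T3 and F21T4 kept.

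The genes most raised in F1BX tumors were high in part of the tumors only. Rdh12, a retinol dehydrogenase, had a log2 level of 5.56 to 7.96 (median 6.18) in F1 and of 5.31 to 11.65 (median 7.45) in F1BX tumors. Its mean difference in limma was 1.52 (standard error 0.445, adjusted p = 0.0227), and 57 of 140 F1BX tumors exceeded every F1 tumor. Lao1, an L-amino acid oxidase secreted into milk and a gene of chromosome 4, had 5.82 to 8.28 (median 6.34) in F1 and 5.58 to 12.28 (median 7.40) in F1BX tumors. For Lao1 limma gave 1.31 (standard error 0.420, adjusted p = 0.0377), with 56 F1BX tumors above the F1 range. Efhd1, a calcium-binding protein of mitochondria, rose by 1.04 (limma, standard error 0.315, adjusted p = 0.0269). Its F1 tumors reached 8.41, its F1BX tumors 10.91, and 39 F1BX tumors lay above the F1 range. The FVB medians of these 3 genes were 10.19, 9.73 and 9.52, above both F1BX and F1. With F21T3 and F21T4 kept, none of the 3 was called (adjusted p = 0.0872, 0.0694 and 0.0701 from limma). F21T4 had levels of 11.06 for Rdh12, 9.73 for Lao1 and 10.16 for Efhd1, above every F1 tumor kept, and F21T3 had 8.79, 6.50 and 6.63.

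Ifi202b, an interferon-inducible gene of the p200 family on chromosome 1, had 5.28 to 6.53 (median 5.93) in F1 and 5.03 to 9.29 (median 6.32) in F1BX tumors, a difference of 0.57 (limma, standard error 0.156, adjusted p = 0.0142). Its intraclass correlation, 0.61, was the highest among the 12 named increases. Tns1, a protein of focal adhesions, rose by 0.46 (limma, standard error 0.0963, adjusted p = 0.00127), with medians of 8.17 in F1 and 8.69 in F1BX tumors. Usp17ld, a deubiquitinase of a family of near-identical copies, rose by 0.90 (adjusted p = 0.00385 from limma). Probes that copies share do not tell them apart, so the gene is uncertain. The FVB median of Usp17ld, 8.40, was near that of F1 (8.45) and below that of F1BX (9.5). The remaining named increases ranged from 0.57 to 0.81 (limma, adjusted p from 0.0156 to 0.0483). They were Gdpd3, a lysophospholipase D, Abhd2, a lipase, the nonclassical MHC class I gene H2-T10, the Wnt effector Lef1, the sialyltransferase St3gal1 and the receptor Eda2r of the TNF receptor family. For these 6 genes, 21 to 62 of 140 F1BX tumors lay above the F1 range. H2-T10 lies on chromosome 17, as does the gene that chose the F1 tumors, with 161 genes between H2-T10 and H2-Eb1. With F21T3 and F21T4 kept, the difference of H2-T10 was 0.63 (limma, adjusted p = 0.0405). The calls of Gdpd3, Abhd2, Lef1, St3gal1 and Eda2r were lost with these 2 tumors kept.

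**Figure D3:**
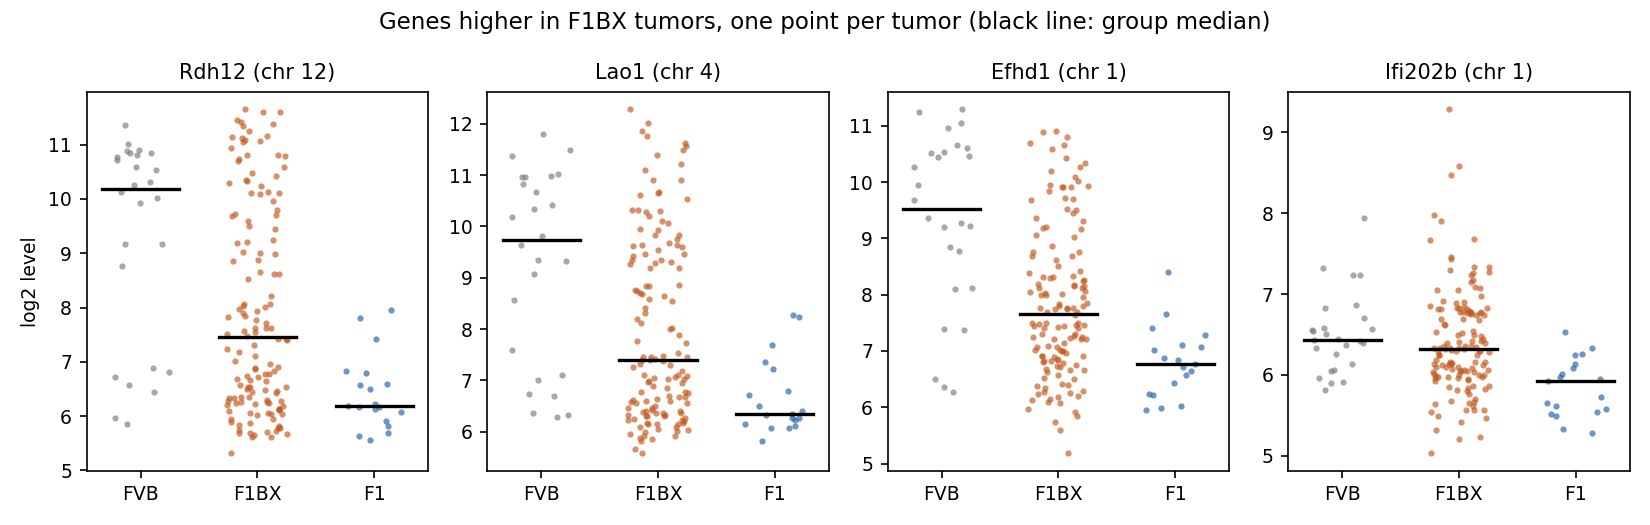
Log2 level (y axis) of Rdh12, Lao1, Efhd1 and Ifi202b in each tumor, by background (x axis). Each point is 1 tumor and black lines are medians. F1 tumors lie near the bottom, and F1BX tumors spread from the F1 level up to 11.65 for Rdh12, 12.28 for Lao1 and 10.91 for Efhd1.

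Called genes were not spread evenly over the chromosomes, a count made after the values were seen. Of 19844 genes with 1 symbol and a chromosome, 792 were called higher and 693 lower in F1BX. On chromosome 4, 10.5% of 1154 genes were called higher and 1 was called lower. The lower one was Cd72, a surface protein of B cells (-0.53, adjusted p = 0.0125 from limma). Calls were also mostly higher on chromosome 7 (96 higher, 10 lower), chromosome 8 (57 and 9) and chromosome 10 (40 and 4). They were mostly lower on chromosome 17 (83 lower, 28 higher) and chromosome 11 (123 and 50). Chromosome 17 holds D17H6S56E-5, whose level chose the F1 tumors, so the chromosome 17 count is not independent of that choice. Of the called genes, 59.3% had another called gene among the 5 genes on either side, against 50.3% of all genes. In the same direction it was 45.9% against 33.1%, and without chromosome 4 it was 43.7% against 31.9%. With the IQR as a covariate, 33 chromosome 4 genes were called higher and 1 lower, and on chromosome 11 there were 17 lower and 5 higher.

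**Figure D4:**
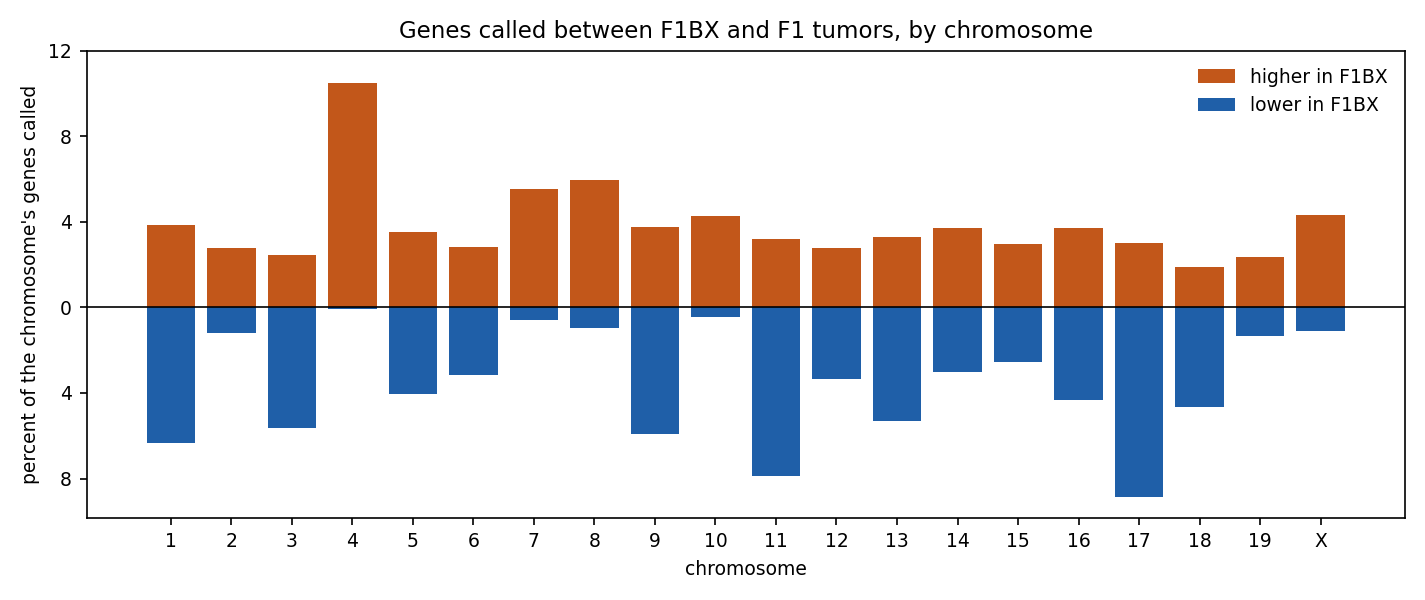
Percent of the genes of each chromosome (x axis) called higher (up) or lower (down) in F1BX than in F1 tumors (y axis). Chromosome 4 has 10.5% of its genes called higher and 0.0867% called lower, and chromosome 17 has the highest share called lower, 8.87%. Chromosome 17 holds D17H6S56E-5, whose level chose the F1 tumors.

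Among the chromosome 4 genes called higher, picked after their values were seen, were Park7, a gene of the oxidative stress response (0.36, adjusted p = 0.000908 from limma), and the cytokine receptor kinase gene Jak1 (0.37, adjusted p = 0.0445 from limma). For each tumor, a chromosome level was taken as the median log2 deviation of its 944 chromosome 4 genes (mean level at least 6) from the F1BX mean, less the same median over all chromosomes. It was -0.21 to 0.08 (median -0.14) in F1, with 13 of 19 tumors below -0.1 and 0 above 0.1. It was -0.24 to 0.26 (median -0.03) in F1BX, with 56 tumors below -0.1, 47 above 0.1 and 37 between. FVB tumors had a median of 0.21, with 18 of 26 above 0.1 and 6 below -0.1. F21T3 and F21T4 had levels between 0.12 and 0.22, above every F1 tumor of the comparison, and with them kept 39 chromosome 4 genes were called higher. Of 30 F1BX mice with at least 2 tumors, 12 had both a tumor below -0.1 and a tumor above 0.1. All tumors were low in 4 mice and high in 3, and the intraclass correlation was 0.14. In 10 consecutive runs of 94 or 95 genes along the chromosome, the median difference between F1BX and F1 was above 0 in each, from 0.054 to 0.128. Levels taken in the same way varied on other chromosomes too. For chromosome 2, 29 F1BX tumors were below -0.1 and 34 above 0.1. The counts were 20 and 9 for chromosome 8, and 15 and 28 for chromosome 12.

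**Figure D5:**
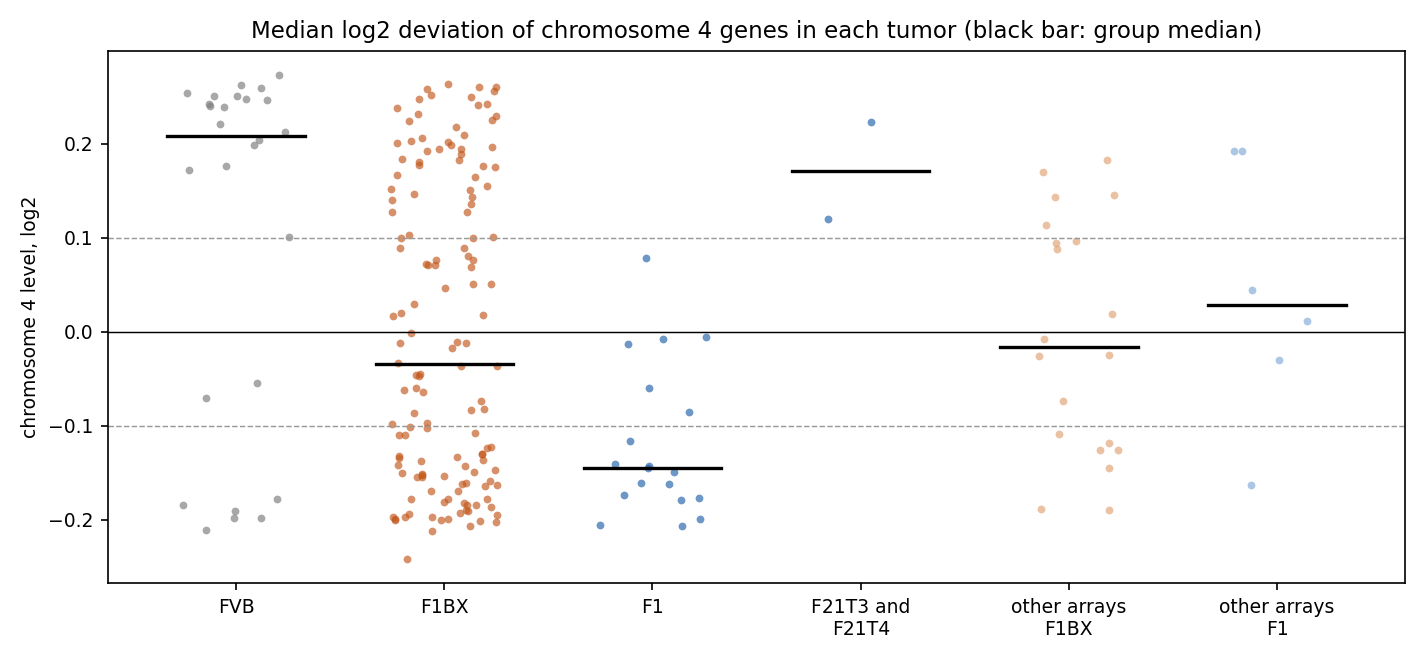
Chromosome 4 level (y axis, log2) of each tumor array by group (x axis), with dashed lines at -0.1 and 0.1 and a black bar at each median. F1 tumors lie mostly below -0.1, F1BX tumors lie both below -0.1 (56) and above 0.1 (47), and 18 of 26 FVB tumors lie above 0.1.

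Among X-linked genes, 32 of 739 were called higher and 8 lower in F1BX (4.33% and 1.08%), against 3.99% and 3.49% of all genes with a chromosome. The differences were small. Hnrnph2, an RNA-binding protein, had a log2 level of 9.81 to 10.47 (median 10.07) in F1 and of 9.71 to 10.99 (median 10.38) in F1BX tumors, a difference of 0.24 (limma, standard error 0.0579, adjusted p = 0.0054). Above the highest F1 tumor lay 46 F1BX tumors. The Hnrnph2 probe set (10490773) is numbered apart from those of the X-linked genes Olfr1320 (10599579) and Mir504 (10604761). Where its probes bind was not checked, so its place on X is uncertain. The microRNA gene Mir504, the olfactory receptor gene Olfr1320, Tex13c3 and Fmr1nb rose by 0.15 to 0.20 in F1BX, and Fmr1nb and Olfr1320 had medians below 5 in both groups. The FVB medians of these 4 genes, as of Hnrnph2, lay between those of F1 and F1BX. With the IQR as a covariate 5 X-linked genes were called, 3 higher and 2 lower.

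The spread of values was tested as the distance of each tumor from its group mean. It was larger among F1BX tumors for 140 probe sets (0.394%) and larger among F1 tumors for 78 (0.219%). The standard deviation itself was larger in F1BX for 68.9% of probe sets, with medians of 0.242 and 0.222. Of the 89 located genes with a larger spread in F1BX, 57 lay on chromosome 4. D17H6S56E-5 is among them, with no test, since its level chose the F1 tumors. Leaving out F21T3 and F21T4 also narrowed the F1 spread of AI506816 and Zfp239, which are among them too. The other named genes of larger spread in F1BX were the chromosome 4 genes Txlna and AU040320. Txlna, a syntaxin-binding protein, had a standard deviation of 0.403 in F1BX and 0.161 in F1 tumors, and AU040320 one of 0.443 and 0.134. Their levels in F1BX tumors reached 10.58 and 10.16, against 10.05 and 9.21 in F1. F21T4 had 10.26 and 9.98, above every F1 tumor kept, and F21T3 had 9.89 and 9.14, within the F1 range. Both also had chromosome 4 levels above every F1 tumor kept. The spread of Txlna and AU040320 and the chromosome 4 count are therefore not independent of leaving F21T3 and F21T4 out. The genes of larger spread in F1 (Strc, Agbl3, Kcnh8, Vdac3 and Bcas1) did not pass the test of the means. Strc, a protein of inner ear stereocilia, ran from 6.01 to 8.89 (median 6.12) in F1 tumors and from 5.73 to 8.80 (median 6.28) in F1BX tumors.

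Of 9 measured MHC class II genes, H2-Eb1 carries no test, and of the others 2 were called lower in F1BX and 0 higher, where 3.28% of all probe sets were called lower. These were H2-Ab1, which encodes the beta chain of I-A and has 1 gene between it and H2-Eb1 in the reference order, with a difference of -0.51 (adjusted p = 0.0315 from limma), and the invariant chain gene Cd74 (-0.51, adjusted p = 0.0494 from limma). H2-Ab1 lies near the gene that chose the F1 tumors, and with F21T3 and F21T4 kept its difference was -0.52 (limma, adjusted p = 0.0358). The calls of H2-Ab1 and Cd74 were lost with 1 array per mouse and with the IQR as a covariate. That of Cd74 was also lost after quantile normalization. H2-Ab1 ran from 9.02 to 11.05 (median 10.57) in F1 and from 8.03 to 11.52 (median 9.97) in F1BX tumors. H2-Aa did not pass (-0.47, adjusted p = 0.0554), and H2-DMa, Ciita, H2-Eb2, H2-Ob and H2-Oa lay between -0.04 and 0.06. The median over the 9 was -0.04, against 0.02 over all probe sets. Of 9 MHC class I genes 1 was called higher, their transcriptional activator Nlrc5 (0.24, adjusted p = 0.0157 from limma), and the median was 0.24. Of 12 interferon response genes 0 were called by limma and 0 had an unadjusted p under 0.05, and a Welch test on the mean per mouse also called 0. Their median was 0.25, and Irf7 and Ifit1 had differences of 0.48 and 0.45 (adjusted p = 0.243 and 0.294).

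Over all 27 lists, 21 of 283 measured genes were called, where 7.66% of all probe sets were called, 4.38% higher and 3.28% lower. The 27 include the list of 16 genes named earlier for FVB against F1 tumors of these same arrays, with 3 called higher and 6 lower. D17H6S56E-5 and H2-Eb1, which carry no test, are among those 6, so the total is not to be read against these shares. A list with 1 call is to be read against them. In 18 of the lists limma called 0 of 191 genes, 22 of which had an unadjusted p under 0.05. Of 10 luminal epithelial genes 2 were called lower, Muc1 and the tight junction gene Cldn7 (-0.33, adjusted p = 0.0374 from limma), while the keratins Krt8 and Krt18 had differences of -0.08 and -0.10. As epithelial markers of the labelled tissue, Krt8 and Krt18 were at least 12.38 and 12.47 in F1 tumors and at least 11.92 and 11.23 in F1BX tumors. The mean level of the luminal list was 10.67 to 11.51 in F1 and 7.83 to 11.39 in F1BX tumors. Of 6 hormone-sensing luminal genes 1 was called higher, the ligand gene Wnt4 (0.16, adjusted p = 0.0189 from limma). Of 12 macrophage genes 1 was called higher, the scavenger receptor gene Marco (0.25, adjusted p = 0.0177 from limma). None of the T and NK cell, B and plasma cell, neutrophil, mast cell, fibroblast, endothelial, adipocyte, skeletal muscle, basal or luminal progenitor genes was called by limma. The mean level of the adipocyte list reached 8.50 in F1 and 10.41 in F1BX, and that of the skeletal muscle list 9.31 and 12.16. Their part in the results was not tested.

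Of 18 proliferation genes 0 were called by limma or by the Welch test, and 7 had an unadjusted p under 0.05. All 18 differences lay below 0, with a median of -0.21. Ccna2, a cyclin of S phase, had a difference of -0.34 (adjusted p = 0.0850), Top2a one of -0.29 (adjusted p = 0.150) and Mki67 one of -0.12 (adjusted p = 0.576). Milk protein and fatty acid synthesis genes had medians of 0.18 and 0.16, with 0 of 10 and 0 of 11 called by limma and 1 in each at an unadjusted p under 0.05. Btn1a1, the butyrophilin of milk fat globules, had a difference of 0.97 that did not pass (adjusted p = 0.226), with 6.09 to 11.56 in F1 and 5.92 to 13.03 in F1BX tumors. The hypoxia, complement and ERK output lists also held 0 calls. Of 13 immediate early and stress genes 1 was called lower, Ier3 (-0.34, adjusted p = 0.0437 from limma). Of 6 housekeeping genes 1 was called lower, Actb, with a difference of -0.08 (adjusted p = 0.0172 from limma) that did not pass after quantile normalization.

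Erbb2, for which signal of the transgene and of the mouse's own gene was not separated here, did not pass the test. It had a log2 level of 11.95 to 12.74 (median 12.42) in F1 and of 9.32 to 12.86 (median 12.42) in F1BX tumors. In limma the difference was 0.003 (standard error 0.0762, adjusted p = 0.984), and 2 F1BX tumors lay below the F1 range. Of 13 ERBB receptor and ligand genes 0 were called by limma, 2 had an unadjusted p under 0.05, and the Welch test called 1. Egf and Erbb4 had differences of 0.60 and 0.41 (adjusted p = 0.161 and 0.441). Of 14 components of AKT, mTOR, RAF, MEK and ERK signaling 3 were called, where 7.66% of all probe sets were. Akt1 (-0.19, adjusted p = 0.0282) and Tsc2 (-0.12, adjusted p = 0.0466) were called lower and the scaffold gene Ksr2 (0.12, adjusted p = 0.018) higher. Akt1 ran from 10.68 to 11.97 (median 10.92) in F1 and from 10.30 to 11.41 (median 10.81) in F1BX tumors. With the IQR as a covariate, none of Akt1, Tsc2 and Ksr2 was called (adjusted p = 0.15, 0.0788 and 0.571 from limma). With F21T3 and F21T4 kept, Ksr2 was called and Akt1 and Tsc2 were not (adjusted p = 0.0340, 0.0686 and 0.0639 from limma). Of the genes called in the lists above, Nlrc5, Cldn7, Wnt4 and Ier3 also lost their calls there. Muc1, H2-Ab1, Cd74, Marco and Actb kept theirs. A list of 16 genes named earlier for FVB against F1 tumors of these same arrays had 3 called higher and 6 lower, with D17H6S56E-5 and H2-Eb1 among the lower ones, and is not independent evidence of a direction.

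The arrays of narrow IQR held 20 F1BX and 6 F1 tumors, with an IQR of 2.33 to 2.62. No array is shared with the comparison above, but 2 mice have arrays in both. By their names, the 2 arrays ending in R are of tumors 035T1 and 246T1, which are in the comparison, so the 2 sets share these tumors. There limma called 0 probe sets (0%), and 1929 had an unadjusted p under 0.05. The difference between the 2 array sets in the effect of background was called for 0 probe sets (0%) by limma, with 2490 at an unadjusted p under 0.05. Of the 24 genes named for the largest differences, 13 had the same sign there, 6 of the increases and 7 of the decreases. Zfp239 had a difference of -0.75 (unadjusted p = 0.0261 from limma) and Muc1 one of -1.34 (unadjusted p = 0.00547 from limma). C1qtnf1 had one of -0.46 (standard error 0.337, unadjusted p = 0.186 from limma), against -1.49 in the comparison above. Arntl2 had one of -0.17 (standard error 0.302), against -0.82 above, and H2-Eb1, given without a test, one of -0.53. AI506816 had a difference of -1.15 (standard error 0.629, unadjusted p = 0.078 from limma). D17H6S56E-5, given without a test, had one of -1.23 (standard error 0.642). Rdh12 (-0.58), Lao1 (-0.32) and Efhd1 (-0.02) did not rise there. The decreases Sema3b (0.28), Dsg1c (0.39), Atp10b (0.31), Matn2 (0.33) and Myo7a (0.09) had the opposite sign there. The chromosome 4 level had medians of -0.02 in F1BX and 0.03 in F1. Of all 2725 called probe sets, 67.5% had the same sign, against 56.5% of all probe sets.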

How the data were processed

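Each Affymetrix Mouse Gene 1.0 ST array held 1 tumor, and each tumor of the comparison entered it with 1 array. The authors normalized the arrays by RMA, and the deposited log2 values per probe set were used as deposited. Arrays have no depth, and their number limits precision. Probe sequences were not used, so an allele that binds probes less and one that is expressed less cannot be told apart.

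F1BX and F1 tumors were compared over all 35556 probe sets in R 4.3.3 with limma 3.58.1 (lmFit, eBayes), with the mouse, read from the tumor name, as a random block. Its correlation was 0.0971, from duplicateCorrelation on every 10th probe set with statmod 1.5.0. The same correlation was used for every probe set, whereas the intraclass correlation was 0.78 for Zfp239 and 0.65 for C1qtnf1. For such genes, tumors of the same mouse counted as more independent than they were, so the standard errors can be too small. A probe set was called at a Benjamini-Hochberg adjusted p under 0.05. Spread was tested in the same fit on absolute deviations from the group mean. The fits were tested on simulated data.

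Genes were named from the platform annotation for the 21789 probe sets with 1 symbol, of which 21698 matched the reference gene table (GRCm38.p6), used for names, chromosomes and gene order only. The chromosome given is that of the named gene, and where the probes bind was not checked. A gene took its probe set of highest mean. Named were the 12 largest called differences in each direction, 5 X-linked genes and 5 genes of larger spread in each group by smallest p, Erbb2, and genes of the 27 lists. Predicted genes were left out. The tumors and lists were chosen with earlier results of these data known. Levels in FVB tumors, shares between mice, pairs of genes and chromosome levels are descriptions.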

Additional observations from a re-analysis of the deposited data

How the results depend on the processing

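The 2725 calls between F1BX and F1 tumors became 1709 with 1 array per mouse, 1214 with F21T3 and F21T4 kept, 64 with all arrays labelled F1BX and F1, 948 with these and the array set as a term, 1816 after quantile normalization, 457 with the array IQR as a covariate, 4198 by a Welch test on the mean per mouse, and 10 at an adjusted p of at most 0.005 and at least 2-fold. The share of calls higher in F1BX was 57.2%, and 45.5% with the IQR as a covariate, 51.3% after quantile normalization and 50.1% over probe sets with a mean of at least 6. The other alternatives (no mouse block, a mean of at least 6, trend and robust, repeated probe sets counted once) gave 2337 to 3157 calls. The 40 X-linked calls became 24, 18, 2, 17, 18, 5, 68 and 0 in the order above, and 24 over probe sets with a mean of at least 6. The 21 called list genes became 12 with 1 array per mouse, 11 with F21T3 and F21T4 kept, 4 with all arrays, 9 with the array set as a term, 7 with the IQR as a covariate and 4 at the stricter threshold. These counts include genes of the list named earlier from these same arrays. The 218 probe sets of unequal spread became 113 with 1 array per mouse, 56 with deviations from the group median and 98 with F21T3 and F21T4 kept. The causes were not tested. Among the 42 named genes that were called, which include D17H6S56E-5 and H2-Eb1, tied to the choice of F1 tumors, C1qtnf1 and Zfp239 held under all 12 alternatives, and Sema3b, Muc1 and Hnrnph2 under 11. The arrays of narrow IQR alone are not among the 12 alternatives. There the differences were -0.46 for C1qtnf1, -0.75 for Zfp239, 0.28 for Sema3b, -1.34 for Muc1 and 0.12 for Hnrnph2. With 1 array per mouse 22 of the 42 held, with F21T3 and F21T4 kept 21, and with the IQR as a covariate 10. Of the 48 named genes, 0 were called in 1 direction and took the other sign under these alternatives, and the other called probe sets were not checked for this. Counts for single chromosomes were added after seeing the data. The other arrays gave 0 calls by limma with and without the mouse block. No paired analysis was possible because F1BX and F1 tumors come from different mice. The spread in limma is pooled over 140 F1BX and 19 F1 tumors, so that a gene that varies more in F1BX has a standard error set mostly by that group.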
